A study of Mus musculus with 67 samples.

Results

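The genes described here encode the proteins of the cytosolic ribosome and the factors that start and elongate protein synthesis on it, as their messenger RNA was measured in C57BL/6 mouse cerebral cortex. Members were chosen by symbol alone. A spot was taken when its single gene symbol in the platform table began with Rpl or Rps and a digit, with Rplp, or with Eif or Eef and a digit, and the S6 kinases and the X- and Y-linked copies of Eif2s3 were left out. This gave 57 genes on 97 spots, of 3905 genes with a single symbol on 4788 of the 8448 spots of the filter. Of the 57, 29 were ribosomal protein genes and 28 were translation factor genes.

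The cortex of 67 mice was profiled, 1 array per mouse, in 14 groups of age, diet and sex. Males and females fed ad libitum (AL) were taken at 1, 6, 16 and 24 months, and males and females under caloric restriction (CR) at 6, 16 and 24 months. Every group had 5 mice except the CR males at 6 months, with 4, and at 24 months, with 3. Those 3 males were all 673 days old, against 703 to 743 days in the other 24-month groups. CR mice ate regular feed until 13 weeks of age and were then stepped down to 60% of fortified feed, so that CR at 6 months was a much shorter exposure than CR at 24 months. The mice labelled 1 month were 17 to 44 days old, and no group carried a transgene or a drug. The whole cortex was used, so fewer cells of a type and less RNA per cell cannot be told apart. Replicates were separate animals. Their number, and not a read depth, limits the precision of these arrays.

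Each value is a z-score, the distance of a spot from the mean of all spots on the same array in units of that array's standard deviation (SD). A z of 0 is the average spot, and differences are in z units and are not fold changes. A z-score follows the amount of transcript only relative to the other spots of the filter, so a shift shared by all genes cannot be seen. The spots of a gene were averaged. Genes with a mean z at or below 0 over all arrays of a fit were kept out of the tests. The methods of the study filter on the mean of the pair of conditions compared instead. Above that mean were 20 of the 57 members.

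The ribosome has a small subunit (Rps proteins), which reads the messenger RNA, and a large subunit (Rpl proteins), which joins amino acids. Initiation factors bring the cap of the messenger RNA, the initiator tRNA and the small subunit together, and elongation factors then drive the ribosome along. Ribosomal proteins are made in matched amounts, and their messengers share a run of pyrimidines at the cap, the 5′TOP tract, through which the mTOR kinase adjusts their translation to nutrients. Neurons also control initiation and elongation locally at synapses. Much of this control acts on translation and on phosphorylation of the factors, which arrays do not measure.

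A pyrimidine hexamer near the annotated start is shown for 4 of the 7 ribosomal protein genes that held it. Rpl36a passed the filter, and Rpl26 and Rps15a were among the genes whose spots most often shared the sign of a difference (described below). Rps9 lay lower in the later arrays, as did the mean of its position class (also described below). The stretches are from RefSeq, assembly GRCm38.p6, on the strand of the gene, and capitals mark the hexamer CTCTTT. It started 23 bases after the annotated transcript start in Rpl26 (chr11:68901577-68901606, plus strand), 32 bases after it in Rpl36a (chrX:134585674-134585703, plus strand), 13 bases before it in Rps15a (chr7:118116143-118116172, minus strand) and 3 bases before it in Rps9 (chr7:3704026-3704055, plus strand).
Rpl26: tcgcgtgtagttCTCTTTccttttgcggcc
Rpl36a: gctctagcctctCTCTTTccgagctgctag
Rps15a: gcccggcccactCTCTTTctgccatcttcc
Rps9: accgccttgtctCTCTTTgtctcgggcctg
Promoter entries were matched for 21 ribosomal protein genes and 20 translation factor genes, and windows of 50 bases before to 50 after the start were searched for 9 motifs. A gene was counted when any of its windows held the motif. CTCTTT on the gene strand was found in 7 of the 21 ribosomal protein genes (33.3%) and in 2 of the 20 translation factor genes (10%). It was found in 4.68% of all 27025 genes with a promoter entry. The shorter pyrimidine motif CTTTC, which overlaps CTCTTT where a C follows, was found in 47.6%, 20% and 14.6% of the same sets, and the ETS motif core CCGGAA, on both strands, in 33.3%, 25% and 9.24%. In the same order, CTTTCC was found in 28.6%, 10% and 5.43%, and CTTTTC in 14.3%, 0% and 4.32%. CTTCCG, on both strands, was found in 42.9%, 35% and 10.4%, and TATAAA in 9.52%, 0% and 4.05%. AAGATGGC was found in 4.76%, 10% and 1.14%, and TTCCTTTC in 4.76%, 5% and 0.666%. A match in a window is a description of sequence and not a site in use.

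Of the 97 member spots, 36.1% had a mean z above 0 over the 57 adult arrays, against 47.1% of all spots and 42.3% of spots with a single symbol. Their mean z was -0.102, and that of the spots with a single symbol was -0.119. By gene the means were -0.0613 and -0.121. The ribosomal protein spots were the lower class, with 13 of 47 above 0 (27.7%) and a mean z of -0.122, and the translation factor spots had 22 of 50 above 0 (44%) and a mean of -0.0831. Among the subfamilies, 7 of 20 Rpl genes, and 1 of 8 Rps genes (Rps15) passed the filter, and Rplp0, which forms the base of the ribosomal stalk, did not. Of the factors, 1 of 2 Eif1, 2 of 3 Eif2, 2 of 4 Eif2b, 1 of 7 Eif3, 3 of 8 Eif4, 1 of 2 Eif5 and Eif6, and both Eef genes passed. The small-subunit genes Rps27l, with a mean z of -1.22, and Rps3a1, with -1.05, had the lowest gene means of the ribosomal class.

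The spots of a single gene often differed. In 27 member genes there was more than 1 spot, and the plot of spot means shows each of them. Rpl23, a large-subunit protein, had spots at 0.959 and 1.05, and Rps20 had spots at -0.762 and -0.661. Rpl41, which encodes the smallest ribosomal protein, had spots at -0.466 and 2.24, Eif5, which triggers GTP hydrolysis on eIF2, had 4 from -0.564 to 1.28, and Eif4enif1, which binds eIF4E and is not itself an initiation factor, had 3 from -3.18 to 0.996. After the groups and the array set described below were taken out, the correlation of spots of the same gene over 57 arrays had a median of 0.155 over 61 pairs of member spots and 0.0521 over 1053 pairs from other genes. All spots of a gene shared the sign of the difference in 8 of 9 age, diet and sex comparisons for Rpl26, Rps15a and Rps20. These genes have 2 spots each, and those of Rpl26 shared a position class (described below), as did those of Rps15a. The sign was shared in 0 of 9 for Eif2s2, with 3 spots, and Eif3a, with 6. With fewer spots a shared sign is likelier by number alone, and the part of position class was not tested. Points here are spots of the same arrays and are not independent replicates. A cDNA spot can also bind related sequences, and ribosomal protein genes have many processed copies in the genome, so a value need not come from the named gene alone.

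**Figure D1:**
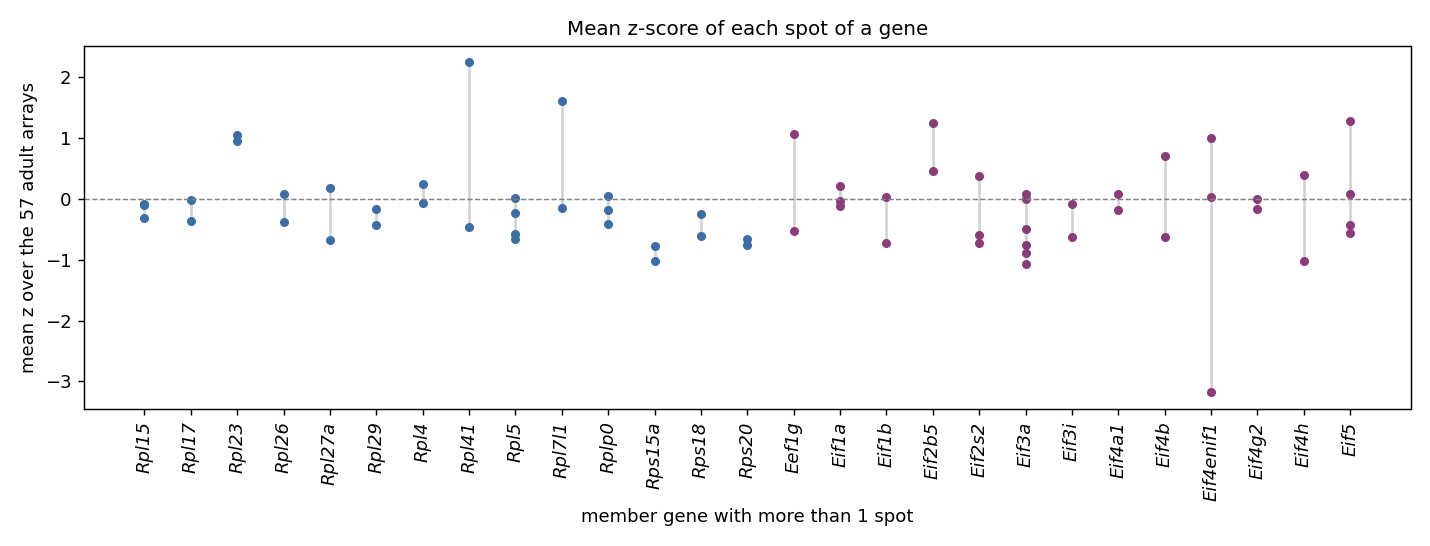
Mean z-score over the 57 adult arrays of each spot (point) of the 27 member genes with more than 1 spot; grey lines join the spots of a gene, ribosomal protein genes are blue and translation factor genes purple. Rpl23 has both spots near 1, whereas Rpl41 and Eif4enif1 each have spots on both sides of 0.

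The gene names come from the platform table, and they were checked against the sex and tissue labels. The spot named Eif2s3y, whose gene lies on the Y chromosome, had a mean z of -1.23 in 30 adult females and -1.17 in 27 adult males, a difference of -0.0506 ± 0.0570 (SE; limma, unadjusted p = 0.379). It lay below the average spot in both sexes. Of the tissue markers, all 4 neuronal genes on the filter lay between 0.983 and 1.22, all 3 astrocyte genes above 0, and the blood gene and both choroid plexus genes below 0. Car2, an oligodendrocyte marker, was at 1.53, and of the endothelial genes Pecam1 was at 1.63, above every neuronal gene, and Cdh5 at -0.576. Microglia had no marker gene on the filter. Symbols were joined to values by spot number, and whether the numbers of the platform table and of the deposited values stand for the same spots was not established, so a named value is that of the spot listed under that name.

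The largest differences in member values were those between the arrays with running numbers 1 to 45 and 46 to 67 in their titles, here called the array sets. All 14 groups had arrays in both sets, with 37 and 20 adult arrays in all. What the running number stands for is not stated. All 8 tested ribosomal protein genes were higher in arrays 46 to 67 at an adjusted p under 0.05 (limma), where 34.7% of the 3610 features tested were called in that direction. Of the 12 tested factors 8 were higher and 4 lower, and 11 were called in either direction, where 71.6% of features were called and 45.4% were higher. The values of the 2 sets did not overlap for 8 of the 20 tested members, against 22% of all features. The filter took the mean over both sets. By set, the mean z of Rpl4 was above 0 only in arrays 46 to 67 (-0.00554 in the first set and 0.258 in the second). So were those of Eif5 (-0.0414 and 0.330) and Eif1a (-0.0317 and 0.127). Eif3l (0.284 and -0.1815) and Eif4b (0.129 and -0.130) were above 0 only in arrays 1 to 45. For these genes the filter favoured the direction counted here.

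In the mean over the 8 ribosomal protein genes, arrays 1 to 45 lay between 0.356 and 0.681 (mean 0.493 ± 0.0603, SD, n = 37) and arrays 46 to 67 between 0.793 and 1.13 (mean 0.897 ± 0.0741, SD, n = 20), so the sets did not overlap. The highest value of all was that of array 67, a 24-month AL female, whose median correlation with the other arrays was 0.783, the lowest of the series (median over arrays 0.964). The mean over the 12 factors was 0.508 ± 0.0482 in the first set and 0.498 ± 0.0386 in the second, because members that were higher and lower offset each other. Much of the offset came from a single member, Eef2k, which differed by -1.40 (described below).

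**Figure D2:**
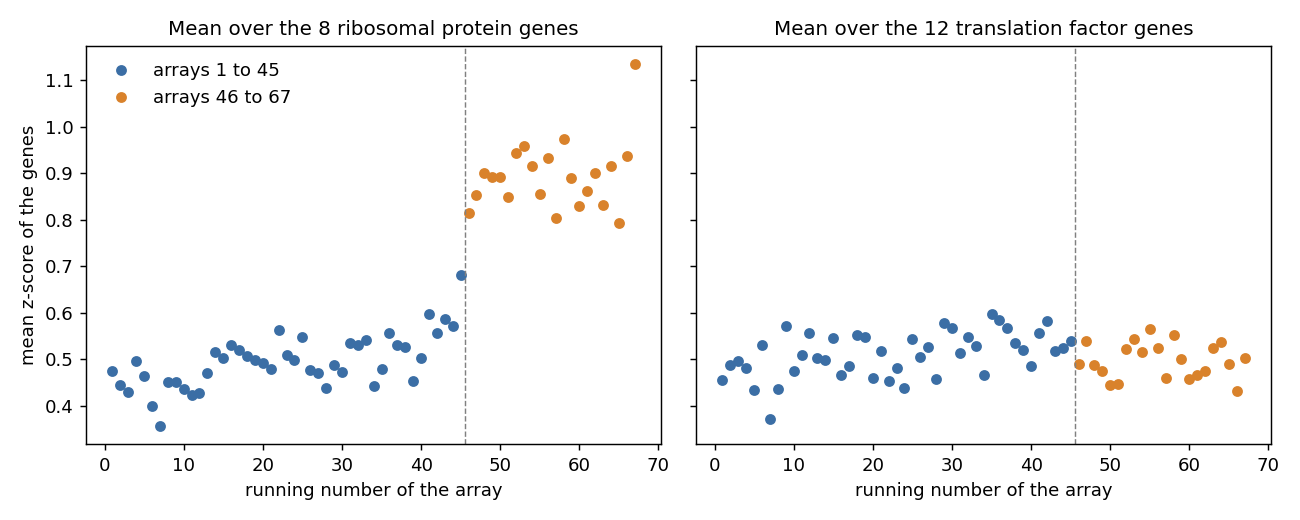
Mean z-score of the 8 tested ribosomal protein genes (left) and the 12 tested translation factor genes (right) on each of the 67 arrays (points) against the running number of the array; the dashed line separates the array sets. The ribosomal protein mean steps up after array 45 and is highest on array 67, and the factor mean stays between 0.371 and 0.598.

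The differences below were not adjusted for spot number. The 8448 spots were put into 22 classes by the remainder of the spot number after division by 22, each of 384 spots. These are called position classes here, but no label says which place on the filter a class holds. The class means themselves differed between the sets. The shift to arrays 46 to 67 lay above the class means of their own spots in 6 of the 8 tested ribosomal protein genes. It did so in 7 of the 12 tested factors. Over all spots, each taken alone, 49.1% lay above their class mean.

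Among the large-subunit genes, Rpl30 differed most between the sets. It ranged from -0.38 to 0.49 in arrays 1 to 45 (mean 0.0476) and from 0.53 to 1.29 in arrays 46 to 67 (mean 0.811), a difference of 0.781 ± 0.0462 (SE; limma, adjusted p = 4.6e-22). The mean of its position class differed by 0.233. Rpl36a, Rpl23, Rpl7 and Rpl41 followed with differences of 0.565, 0.493, 0.436 and 0.418, then Rpl4 with 0.267. The class means of Rpl36a and Rpl7 differed by 0.382, and that of Rpl23 by 0.432. The smallest was that of Rpl7l1, a paralogue of Rpl7, at 0.121 ± 0.0256 (limma, adjusted p = 3.29e-05), and it was not called when only its spot above 0 was used (0.0405). The small-subunit gene Rps15 differed by 0.198 ± 0.0312. Both Rpl7l1 and Rps15 lay below their class means, of 0.301 and 0.346.

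The factors went both ways. Eef2k, the kinase that inhibits elongation factor eEF2, ranged from 0.96 to 1.9 in arrays 1 to 45 and from -0.53 to 0.63 in arrays 46 to 67. Its difference of -1.40 ± 0.0552 (SE; limma, adjusted p = 8.7e-30) was the largest of the tested members, but the mean of its position class differed by -1.004, which left -0.397. Eif4e, the protein that binds the cap, ranged from 0.48 to 0.91 in the first set and from 1.01 to 1.46 in the second, a difference of 0.492 ± 0.0289 (limma, adjusted p = 3.27e-22), where its class mean differed by 0.382. Eif2b1, a subunit of the exchange factor that reloads eIF2 with GTP, was 0.463 higher, whereas Eif2b5, the catalytic subunit of the same complex, was 0.229 lower. Eif3l and Eif4b were 0.465 and 0.249 lower, where the class mean of Eif3l differed by 0.0101 and that of Eif4b by -0.258. Eif2d, which delivers initiator tRNA without eIF2, was the only tested member not called (0.0219 ± 0.0391; limma, adjusted p = 0.626).

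The untested members are given without a p. Over all 29 ribosomal protein genes the median difference was 0.267 and 25 were higher in arrays 46 to 67. Rps9 was the lowest of the class. It ranged from -0.17 to 0.58 in the first set and from -0.83 to -0.46 in the second, a difference of -0.916. Its spot was in the same position class as that of Eef2k, whose mean differed by -1.004, so that Rps9 was 0.0881 above its class mean. By spot, 43 of 47 ribosomal protein spots (91.5%) and 30 of 50 factor spots (60%) were higher in arrays 46 to 67, against 48% of all spots. The position class of a spot moved with this. The position classes that held the ribosomal protein spots had a median class shift of 0.228, close to the median shift of those spots themselves, 0.240, and the median shift beyond the class mean was 0.114. Beyond the class means, 35 of the 47 ribosomal protein spots (74.5%) and 25 of the 50 factor spots (50%) were higher, against 49.1% of all spots. The part of the position class in the difference was not tested further.

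**Figure D3:**
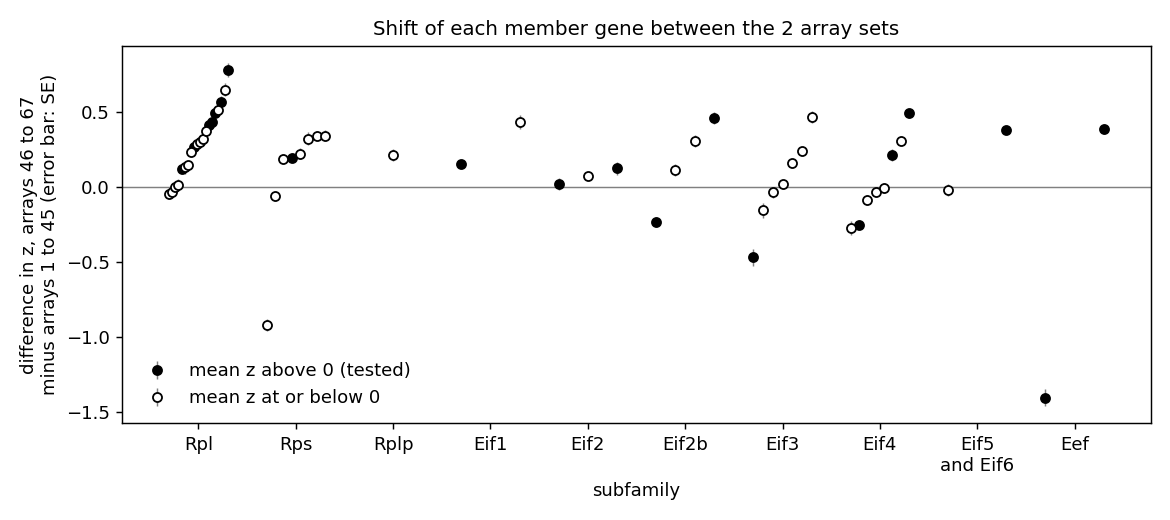
Shift in z from the earlier array set (1 to 45) to the later (46 to 67) of the 57 member genes (points, ± SE) by subfamily, with the groups taken into account; filled points passed the filter. Most Rpl and Rps genes lie above 0, Rps9 lies at -0.916 and Eef2k at -1.40, both on spots of a position class whose mean lies at -1.004.

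Age, diet and sex were compared with the array set as a term. At an adjusted p under 0.05, no member and no other feature was called in any of the 11 comparisons (limma, 0 of 3610 features, or 0 of 3600 from 1 to 6 months). The precision was that of small shifts, with a median 95% confidence interval of the members of ± 0.101 to ± 0.110 in the age and the single-age diet comparisons and ± 0.0608 in the comparison of all AL with all CR adults and of females with males. The median SD of the residuals was 0.106 for the ribosomal protein genes and 0.123 for the factors, against 0.137 over all features tested. Counts of members at an unadjusted p under 0.05 are given below beside the share of all features that reached it. The z-ratio rule of the methods, a difference above 1.5 SD of all differences with an unadjusted p under 0.05, was run without the array set as a term. It called Eif2d alone from 16 to 24 months (1.97% of features) and in CR at 24 months (2.47%), and 0 members from 6 to 16 months (1.11% of features), from 6 to 24 months (1.84%), from 1 to 6 months (1.68%), in CR at 6 months (2.83%), at 16 months (0.553%) and over the adult ages (2.27%), and between the sexes (2.55%).

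**Figure D4:**
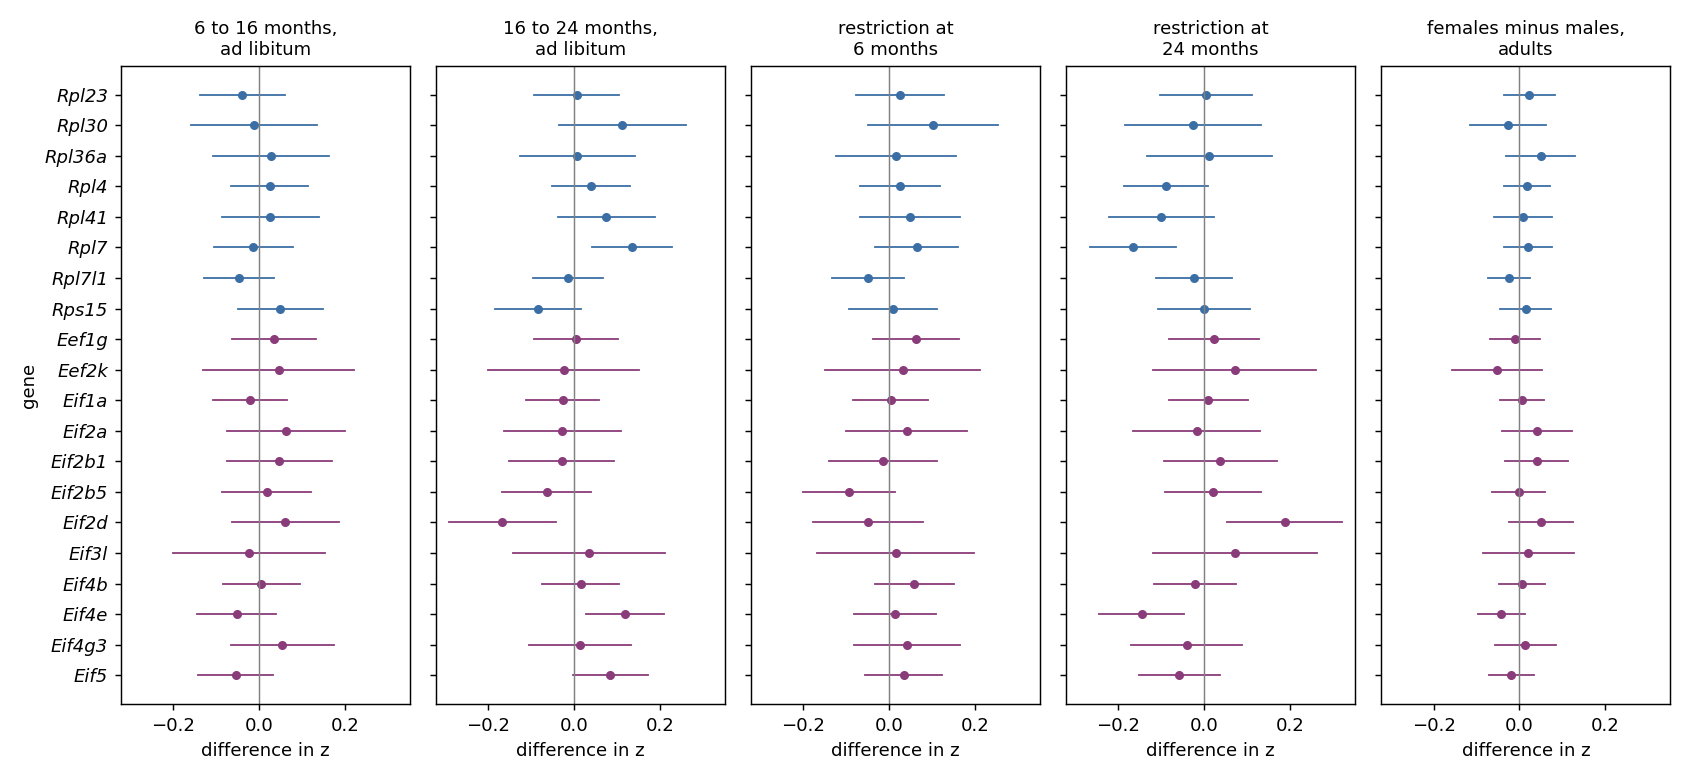
Difference in z (points) with its 95% confidence interval (lines) for the 8 ribosomal protein genes (blue) and the 12 translation factor genes (purple) in 5 comparisons, with the array set as a term. Rpl7, Eif4e and Eif2d are the genes whose intervals leave out 0, from 16 to 24 months and in restriction at 24 months.

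Between 6 and 16 months under AL feeding no member reached an unadjusted p of 0.05, where 2.66% of features did. The 8 ribosomal protein genes were split, 4 higher and 4 lower, with a median difference of 0.00686, and 8 of the 12 factors were higher, with a median of 0.0265, where 48.7% of features were higher (median -0.00134). The smallest p was that of Eif5, which was lower by 0.0546 (limma, unadjusted p = 0.219, adjusted p = 0.999). From 1 to 6 months no member reached it either (3.5% of features). Rpl41, at -0.0997 ± 0.05 (limma, unadjusted p = 0.0535, adjusted p = 0.999), and Eef2k, at -0.150 ± 0.0852, had the smallest p, and 3 of 8 ribosomal protein genes and 4 of 12 factors were higher, where 54.3% of features were.

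Between 16 and 24 months under AL feeding, 3 of the 20 tested members reached an unadjusted p of 0.05, where 14.4% of all features did, so the share of members was near the background. They were Rpl7 and Eif4e, higher at 24 months, and Eif2d, lower. The ribosomal protein genes were 6 higher and 2 lower (median 0.0238) and the factors 6 and 6 (median -0.0100), while 41.7% of all features were higher (median -0.0190). Groups that did not overlap within arrays 1 to 45 were found in 0 of the 20 members (0.0554% of features), and within arrays 46 to 67 in 2, Eif4e and Eif2d (1.61%). Of the 4 neuronal marker genes 3 were lower at 24 months, 2 at an unadjusted p under 0.05 (Stmn3 at -0.213 and Uchl1 at -0.118). Of the 3 astrocyte genes 1 was higher, at that p (Glul, 0.124), and 2 were lower (median of the 3, -0.007). The part of cell types in the member differences was not tested.

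Rpl7 (Entrez gene 19989), a protein of the large subunit, is given within each array set, since the sets did not overlap. In arrays 1 to 45 its z was 0.36, 0.42 and 0.56 (lowest, median, highest of 6) at 16 months and 0.46, 0.58 and 0.63 (of 6) at 24 months. In arrays 46 to 67 it was 0.76 to 0.99 (n = 4) at 16 months and 0.85 to 1.26 (n = 4) at 24 months. The 24-month values were shifted up in both sets and overlapped with those at 16 months. The difference was 0.136 ± 0.0464 (SE, 95% interval 0.0429 to 0.229; limma, unadjusted p = 0.00499, adjusted p = 0.274), and it was 0.108 without array 67. Within the sets it was 0.130 in arrays 1 to 45 and 0.145 in arrays 46 to 67.

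Eif4e (Entrez gene 13684) was higher at 24 months by 0.119 ± 0.0459 (SE; limma, unadjusted p = 0.0122, adjusted p = 0.275). In arrays 1 to 45 its z was 0.57, 0.66 and 0.89 (lowest, median, highest of 6) at 16 months and 0.67, 0.76 and 0.85 (of 6) at 24 months, and the groups overlapped. In arrays 46 to 67 it was 1.06 to 1.16 (n = 4) at 16 months and 1.19 to 1.46 (n = 4) at 24 months, and the groups did not overlap. The difference within arrays 1 to 45 was 0.0617, and within arrays 46 to 67 it was 0.205.

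Eif2d (Entrez gene 16865) was lower at 24 months by 0.167 ± 0.0621 (SE; limma, unadjusted p = 0.00953, adjusted p = 0.275). Its z in arrays 1 to 45 was 0.1, 0.425 and 0.51 (lowest, median, highest of 6) at 16 months and 0.17, 0.29 and 0.51 (of 6) at 24 months, nearly the same range. In arrays 46 to 67 it was 0.45 to 0.72 (n = 4) at 16 months and 0.08 to 0.44 (n = 4) at 24 months, with no overlap. The difference of -0.0617 in the first set was smaller than that of -0.325 in the second.

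From 6 to 24 months under AL feeding, Rpl7 was the only member at an unadjusted p under 0.05, where 7.89% of features were. It was higher by 0.123 ± 0.0465 (SE; limma, unadjusted p = 0.0105, adjusted p = 0.554) and by 0.0969 without array 67. Rpl41 was higher by 0.102 and Eif2d lower by 0.105, both short of that threshold. The tested ribosomal protein genes were 5 higher and 3 lower (median 0.0499) and the factors 9 and 3 (median 0.0218), where 38.4% of features were higher (median -0.0210). This comparison shares its 24-month arrays with the one before it.

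CR was compared with AL at each age. At 24 months the CR males were also younger than the other groups, so that diet and age cannot be told apart in them. At 6 months no member reached an unadjusted p of 0.05 (3.91% of features). There 7 of 8 ribosomal protein genes and 9 of 12 factors were higher under CR, where 42.7% of features were, with medians of 0.0254 and 0.0236. Eif2b5 came nearest, at -0.0940 ± 0.0533 (limma, unadjusted p = 0.0836, adjusted p = 1), and Rpl30 had the highest difference, 0.103. At 16 months no member reached it either (1.33% of features), with 3 of 8 and 5 of 12 higher, where 52.4% of features were. Eif2a, which like Eif2d can deliver initiator tRNA, was lowest at -0.104, and Eif4g3, a scaffold of the cap-binding complex, was at -0.0920.

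At 24 months the same 3 members reached an unadjusted p of 0.05 in CR against AL (3 of 20, where 10.5% of features did), each in the direction opposite to its difference from 16 to 24 months. Both comparisons use the same 10 AL arrays at 24 months, so the opposite signs are not independent. The ribosomal protein genes were 3 higher and 5 lower under CR (median -0.0250) and the factors 7 and 5 (median 0.0152), where 56.6% of features were higher (median 0.0165). Within arrays 1 to 45 no member separated CR from AL (0.111% of features), and within arrays 46 to 67 only Eif2d did (4.35%).

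Under CR at 24 months, the z of Rpl7 was 0.37 to 0.51 (n = 5) in arrays 1 to 45 and 0.75 to 0.89 (n = 3) in arrays 46 to 67, each in the lower part of the AL range at that age and overlapping with it. It was lower by 0.165 ± 0.0501 than under AL (SE, 95% interval -0.266 to -0.0649; limma, unadjusted p = 0.00173, adjusted p = 0.250). The differences within the sets were -0.143 and -0.195, and without array 67 the difference was -0.138. Eif4e was 0.48 to 0.82 (n = 5) in the first set and 1.01 to 1.25 (n = 3) in the second, and was lower by 0.146 ± 0.0495 (limma, unadjusted p = 0.00478, adjusted p = 0.281). Both sets had the lower mean under CR, by 0.136 and 0.155, and both ranges overlapped those under AL.

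Eif2d was 0.14 to 0.6 (n = 5) in arrays 1 to 45 and 0.45 to 0.7 (n = 3) in arrays 46 to 67 under CR at 24 months. In the second set these values lay above the AL range. It was higher by 0.187 ± 0.0670 (SE; limma, unadjusted p = 0.00722, adjusted p = 0.288), by 0.107 in the first set and 0.305 in the second. In the same comparison the 4 neuronal marker genes had a median of 0.0756. Of these Stmn3 reached an unadjusted p of 0.05, at 0.186 (limma, adjusted p = 0.443), and of the 3 astrocyte genes Glul did, at -0.147 (adjusted p = 0.380), where 10.5% of features did. Their part was not tested here either.

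**Figure D5:**
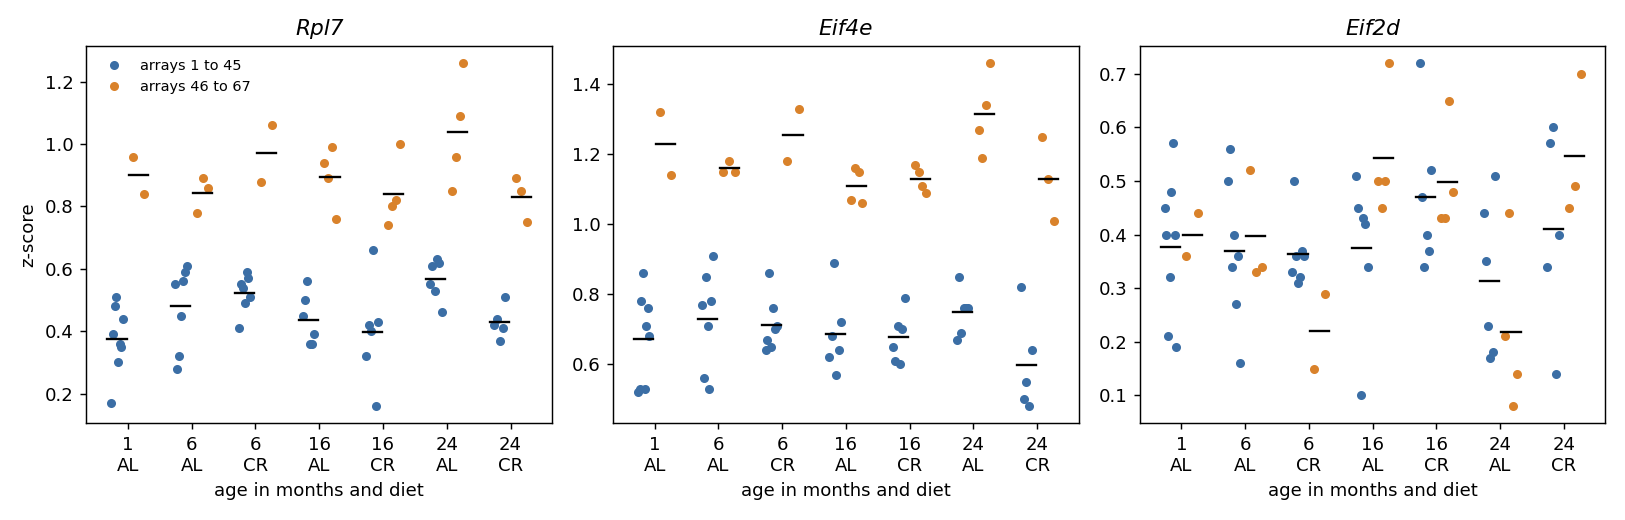
z-score of Rpl7, Eif4e and Eif2d on each of the 67 arrays (points, one per mouse) by age and diet (AL, ad libitum; CR, caloric restriction), with the array sets apart; black lines are means. For Rpl7 and Eif4e the array sets separate more than any pair of ages or diets, and the 24-month AL means are the highest of their set at the adult ages.

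The difference between the CR effect at 24 months and at 6 months was tested as an interaction. Rpl7 was at -0.230 ± 0.0693 (SE; limma, unadjusted p = 0.00166, adjusted p = 0.340), Eif2d at 0.236 ± 0.0927 (unadjusted p = 0.0139) and Eif4e at -0.160 ± 0.0685 (unadjusted p = 0.0234). These were the 3 of 20 members at an unadjusted p under 0.05, where 9.39% of features were. Of the ribosomal protein genes 1 was above 0 and 7 below (median -0.0680), where 60.8% of features were above (median 0.0302). Over all adult ages together no member reached an unadjusted p of 0.05 between CR and AL (4.74% of features). Of the ribosomal protein genes 3 of 8 were higher and of the factors 5 of 12, where 52.9% of features were, and the smallest p was that of Rpl7, at -0.0488 ± 0.0278 (limma, unadjusted p = 0.0854, adjusted p = 0.952).

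Females and males did not differ in any member at an unadjusted p under 0.05, where 8.23% of features did. The differences of the ribosomal protein genes ran from -0.0264 to 0.0499, with 6 of 8 higher in females (47.4% of features), and those of the factors from -0.0520 to 0.0513, with 7 of 12 higher. The smallest p was that of Eif4e, lower in females by 0.0420 (limma, unadjusted p = 0.133, adjusted p = 0.713).

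The change from 6 to 24 months was compared between AL females and AL males. Rpl30 and Rpl41 reached an unadjusted p of 0.05 (2 of 20, where 6.79% of features did). In arrays 1 to 45 the z of Rpl30 in females was -0.36, -0.09 and 0.11 at 6 months and -0.15, 0.15 and 0.29 at 24 months. In males it was -0.18, 0.06, 0.22 and 0.49 at 6 months and 0, 0.09 and 0.19 at 24 months, and the ages overlapped in both sexes. In arrays 46 to 67 the females had 0.59 and 0.75 at 6 months and 0.77 and 1.29 at 24 months. The males had 0.8 at 6 months and 0.76 and 0.8 at 24 months. The value of 1.29 was that of array 67. The interaction was 0.336 ± 0.147 (SE; limma, unadjusted p = 0.0263, adjusted p = 0.614) and that of Rpl41 was 0.240 ± 0.113 (unadjusted p = 0.0392). The tested ribosomal protein genes were 7 above 0 and 1 below with a median of 0.149 (all features -0.0413, 38.8% above 0), and the median was 0.0876 without array 67.

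The members shared little of their remaining spread, the ribosomal protein genes more than the factors. With the groups and the array set taken out, the correlation over the 57 adult arrays had a median of 0.157 over the 28 pairs of tested ribosomal protein genes and ranged from -0.563 to 0.694. It was -0.00236 over the 66 pairs of factors and -0.0016 over all pairs of features. Pairs of spots of the same member gene had a median of 0.155, close to that of the ribosomal protein genes. Neither the position class of a spot nor array 67 was taken out, and their part was not tested. Genes of the same arrays are not independent, and these values are descriptions.

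Other genes of the pathway were listed by function, and none had an adjusted p under 0.05 for age, diet or sex (limma). From 16 to 24 months, where 14.4% of all features reached an unadjusted p of 0.05, 5 of the 12 tested mitochondrial ribosomal protein genes did, 3 higher and 2 lower, among them Mrpl38 at 0.291 and Mrpl19 at -0.118. Of 13 ribosome biogenesis genes 2 reached it, Rrp1b at 0.120 and Nol7 at -0.234. Of 6 genes of termination, recycling and poly(A) binding, Paip2, which restrains the poly(A)-binding protein, was at -0.201 ± 0.0545 (limma, unadjusted p = 0.000539, adjusted p = 0.243) and Abcf1 at 0.239. Of 6 aminoacyl-tRNA synthetase genes 1 reached it, Yars at 0.166. None of the 4 genes listed under mTOR and S6 kinase signalling did (Akt1, Pdpk1, Rps6ka6 and Rps6kc1), and the mTOR kinase itself was not among them. Neither the single tested eIF2α stress gene nor the single tested neuronal translation regulator reached it. In CR at 24 months (10.5% of features at that p), Paip2 was at 0.190, Nol7 at 0.216 and Mrpl38 at -0.248. Rpsa and Fau, which encode small-subunit proteins under other symbols, were both higher in arrays 46 to 67, with a median of 0.531.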

How the data were processed

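RNA of each cortex was labelled with 33P per the labels (the published methods name another phosphorus isotope), hybridised to the first of 2 mouse 17K cDNA filters, imaged and quantified by the authors. The deposited values are z-scores, a score per spot with mean 0 and SD 1 on each array; whether intensities were logged first is not given in the sources used here. Arrays with running numbers 1 to 45 and 46 to 67 were taken as sets. The free-text description of array 27, the second 24-month AL male, is that of a 1-month mouse; the other labels were followed.

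Spots with a single symbol were averaged per gene and the others kept alone (7565 features). Features with a mean above 0 over the arrays of a fit were fitted with limma 3.58.1 in R 4.3.3, with 12 adult groups (57 arrays) and, from 1 to 6 months, 8 AL groups (40 arrays), the array set as a term, and Benjamini-Hochberg adjustment. The fits were tested on simulated data. Named were, in each comparison, the 3 members of each class with the smallest p, the largest shifts between sets, and genes with several spots. Alternatives were no set term, each set alone, no filter, each spot, spots above 0, quantile normalization, array weights, another prior, a single fit, the study's z-ratio rule (1.5, unadjusted or adjusted, without the set term), updated symbols (none changed) and each array left out; leaving out both doubted 24-month arrays and a replicate block by round of the running numbers were added after seeing the data. Members, lists and array sets were chosen with earlier results of these data known. Figures were drawn in Python 3.11.15 with matplotlib 3.10.9.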

Additional observations from a re-analysis of the deposited data

Results flagged for a closer look

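In 13 groups of 4 or 5 mice, 6 quantities (4 genes and the means of both classes) were searched for a single array far from the others, after adjustment for the array set. It was found in 3 of these 78 combinations, no more than the 1 in 20 that chance gives. Array 23, the second 16-month AL male, was such an array for 2 members. Its z of 0.89 for Eif4e compared with 0.578 to 0.658 in the other 4 arrays, and its z of 0.1 for Eif2d with 0.42 to 0.51. Without it, the difference from 16 to 24 months was 0.146 for Eif4e and -0.205 for Eif2d. In the 16-month CR females, the fourth had a z of 0.26 for Eef2k, which is 1.66 on the scale of arrays 1 to 45, against 1.35 to 1.44 in the others.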

How the results depend on the processing

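No member was called for age, diet or sex under any alternative with adjusted p. Over all features these counts were 0 except the following. Restriction at 24 months gave 1 with quantile normalization, 5 with array weights and 1 in the single fit, and restriction by age gave 1 without the filter, 1 with quantile normalization, 2 with array weights and 1 in the single fit. Sex by age gave 1 with array weights. The unadjusted z-ratio rule gave 40 from 6 to 16 months, 71 from 16 to 24, 66 from 6 to 24, 102, 20 and 89 for restriction at 6, 16 and 24 months, 82 over the adult ages, 92 for sex and 60 from 1 to 6 months; the adjusted rule gave 0. For the array set the count was 5289 without the filter, where the ribosomal protein median was 0.267.

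With each array left out in turn, counts ran from 0 to 3 (16 to 24 months, 3 without array 23), 0 to 2 (restriction at 24 months), 0 to 1 (sex) and 0 to 1 (restriction by age), and the ribosomal protein median for sex by age from 0.0876 (without array 67) to 0.181. That median was 0.0625 without the set term, 0.0876 with array weights, 0.0826 without both doubted arrays and 0.2375 in arrays 46 to 67, and the factor median was 0.102 in arrays 1 to 45. In arrays 46 to 67 alone the ribosomal protein medians were 0.129 from 16 to 24 months, 0.15 from 6 to 24 and -0.164 for restriction by age, and the factor medians 0.0875 from 6 to 24 months, -0.0575 for restriction at 24 and -0.1425 for restriction by age. Signs turned for Rpl23 from 6 to 16 months (0.0105 without the set term and under both z-ratio settings), Eif2d from 6 to 16 months (-0.00375) and Rpl7l1 for sex (0.00104) in arrays 1 to 45, Rps15 (-0.015) and Eif5 (0.00563) from 6 to 16 months in arrays 46 to 67, and over the adult ages for Eif1a (-0.0221, spots above 0) and Rpl41 (0.00641, array weights). The causes were not tested. Without the set term the unadjusted p of Rpl7 was 0.223 from 16 to 24 months and 0.137 for restriction at 24 months.

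The running numbers form 5 rounds, each with at most 1 array of a group, and no label says that a round marks a batch. Within rounds the residuals of the adult arrays had median correlations from -0.0196 to 0.0991, so no pairing was taken from them. With the rounds as a replicate block beside the set term, 0 features were called for age, diet or sex, with 0 to 3 members per comparison at an unadjusted p under 0.05. For the array set, which then rests on the single round that spans both sets, 1326 features were called, against 2586. That round runs from array 42 to array 55 with 12 adult arrays, and few of its adult arrays are in the first set. The ribosomal protein median was then 0.266, and Rpl7l1 was no longer called (0.165). The interval half-widths given above are those of single tests, and differences larger than them could also go uncalled after adjustment. Rpl7 in restriction at 24 months was such a case, at -0.165 (limma, adjusted p = 0.250). Of the 57 members, 37 lay at or below the average spot and were not tested.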
